A study of Homo sapiens with 4 samples.

Results

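The microRNA (miRNA) repertoire of uninduced HCT116 cells was described from 2 of the 4 small-RNA libraries of the series, those labelled minus, over all 1345 miRNA rows of the deposited table. HCT116 is an established human colorectal carcinoma cell line. It had been made into 2 lines, sh1 and sh2, that each carry an independent short hairpin RNA (shRNA), expressed on addition of doxycycline, against SAE2, the catalytic subunit of the enzyme that activates SUMO. Both minus libraries therefore came from cells with an shRNA cassette, and a library of parental HCT116 was not analysed here. Minus was read as without doxycycline, although the labels attach the same doxycycline treatment text to all 4 libraries. The table's column name writes sh4 where the sample title writes sh2, and the columns were matched by the library number that both carry. Each line gave 1 minus library (replicate 1, sh1, and replicate 2, sh2), the labels do not say whether a line is 1 clone, and the spread between the 2 libraries joins line, culture and library. The libraries marked plus were not used.

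A miRNA is cut from a hairpin precursor, and its strands are named 5p and 3p after the arm of the hairpin they come from. One strand is usually kept by an Argonaute protein, and pairing of its seed, bases 2 to 8, with messenger RNAs leads to lower output of those messages. miRNAs with the same seed form a family with overlapping targets, and miRNAs whose hairpins lie close together can be made from 1 primary transcript.

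The values are normalised read counts per mature miRNA and summed to 9847531 in the sh1 library and 9700472 in the sh2 library. The lowest values lay near whole multiples of a step, the value of 1 read, of 1.008 in sh1 and 0.945 in sh2, which gave about 9771255 and 10267219 reads. The floor was set at 3 reads, or 3.02 normalised counts in sh1 and 2.83 in sh2. Above it lay 882 miRNAs in sh1, 897 in sh2 and 833 in both, while 399 of 1345 rows (29.7%) were at or under it in both and 114 of these were listed at 0 in both. Across the 383 miRNAs whose mean reached 100, levels in the 2 libraries had a Spearman correlation of 0.996, a description over rows that share the same pair of libraries. The estimated reads still differed by more than sampling noise, with a chi-square per degree of freedom of 19.9 over 838 rows, so the pair was not 1 library deposited in duplicate.

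Few miRNAs and few seeds made up most of the reads. The mature sequences of the leading members of the 10 largest seed families are shown because these families held 70.4% ± 0.442 (SD, n = 2) of all normalised counts. They are RefSeq sequences from a table of the human assembly GRCh38.p14, 5′ to 3′, and capitals mark the seed.
miR-21-5p: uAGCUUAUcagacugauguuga
miR-590-5p: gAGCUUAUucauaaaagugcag
miR-100-5p: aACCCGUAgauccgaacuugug
miR-99b-5p: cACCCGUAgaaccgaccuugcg
miR-221-3p: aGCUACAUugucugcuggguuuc
miR-222-3p: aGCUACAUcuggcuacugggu
miR-7-5p: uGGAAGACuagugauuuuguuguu
let-7f-5p: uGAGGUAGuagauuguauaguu
let-7g-5p: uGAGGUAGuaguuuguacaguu
miR-31-5p: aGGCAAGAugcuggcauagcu
miR-26a-5p: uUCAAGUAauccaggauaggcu
miR-26b-5p: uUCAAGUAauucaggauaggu
miR-29a-3p: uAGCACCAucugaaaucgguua
miR-148b-3p: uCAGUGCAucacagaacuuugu
miR-148a-3p: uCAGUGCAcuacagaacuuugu
miR-200c-3p: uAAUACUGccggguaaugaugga
miR-200b-3p: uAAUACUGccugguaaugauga
Of the 1345 names, 1078 matched a RefSeq mature sequence and 267 did not. The matched names held 92.3% of all normalised counts, and miR-186-5p and miR-425-5p were the names without a match among the 20 most abundant. Names without a match, miR-30d-5p and miR-30b-5p among them, are in no seed family. Sizes and ranks of families therefore hold for matched names only.

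miR-21-5p, a miRNA that is abundant in many carcinomas and represses the tumour suppressor PDCD4, was the most abundant miRNA in both libraries. It had 2014353 normalised counts in sh1 and 1926230 in sh2, or 20.5% and 19.9% of all counts. miR-100-5p, whose family targets MTOR, came next in both with 1523766 and 1562967. The miR-21-5p level exceeded that of miR-100-5p by 1.32-fold in sh1 and 1.23-fold in sh2, and both stood well above the rest. The mean level of miR-21-5p was 3.20 times that of miR-7-5p, the next in rank.

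miR-7-5p, which targets EGFR and is bound by the circular RNA CDR1as, had 632923 normalised counts in sh1 and 597121 in sh2. miR-221-3p, a repressor of the cell cycle inhibitor CDKN1B, had 502279 and 535274. miR-31-5p, often raised in colorectal carcinoma, had 319898 and 317555. These 5 miRNAs held the same ranks in both libraries and together made up 50.8% ± 0.149 (SD, n = 2) of all counts.

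Below them came let-7f-5p, of the let-7 family that represses RAS genes and HMGA2, with 251114 normalised counts in sh1 and 265518 in sh2. miR-29a-3p, which targets collagens and DNA methyltransferases, had 240484 and 235328, and miR-26a-5p, which targets EZH2, had 225886 and 215404. Ranks 6 to 9 were also the same in both libraries, the ninth being miR-99b-5p with 175717 and 171352. The order became less fixed from there. miR-10a-5p, encoded in the HOXB gene cluster, had 154111 and 147059 and ranked 10 in sh1 and 11 in sh2, whereas miR-222-3p had 140606 and 155925 and ranked 12 and 10. miR-186-5p, with 151114 and 137692, lay between them in rank in sh1 and below both in sh2, so neighbours at this level did not differ beyond the spread of the libraries.

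The rest of the 20 most abundant had means from 138032 (let-7g-5p) to 89193 (let-7a-5p). They were let-7g-5p, the epithelial miR-200c-3p, miR-24-3p, miR-148b-3p, miR-425-5p, miR-148a-3p, let-7i-5p and let-7a-5p. The 10 highest rows of each library shared 9 names, the 50 highest shared 49 and the 100 highest shared 99.

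**Figure D1:**
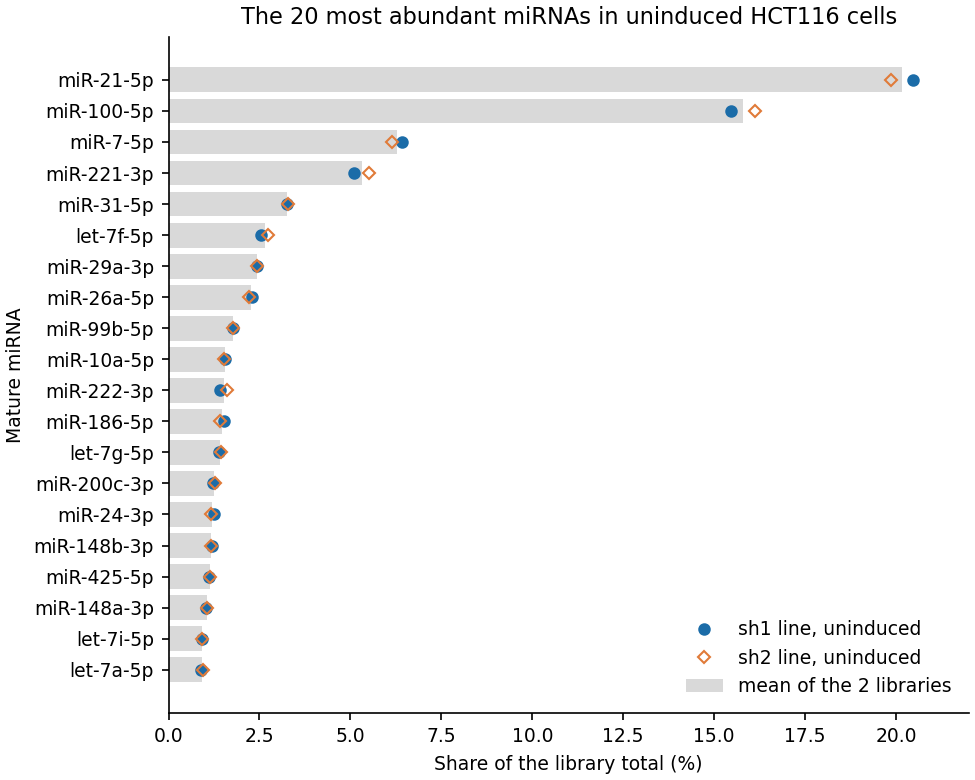
Share of each library's normalised counts (horizontal axis, percent) for the 20 miRNAs with the highest mean, with the sh1 and sh2 minus libraries marked separately. miR-21-5p and miR-100-5p stand apart, and the marks of the 2 libraries lie close together throughout.

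The concentration of counts was steep. The 10 most abundant miRNAs held 61.5% ± 0.171 (SD, n = 2), the 20 most abundant 73.5% ± 0.276 and the 50 most abundant 91.2% ± 0.210. It took 5 miRNAs to reach 50% of all counts, 47 to reach 90% and 176 to reach 99%. The 18 miRNAs averaging 100000 or more held 71.7%, and the 56 between 10000 and 100000 held 23.6%. At the other end, 370 rows lay between 1 and 10 and 276 below 1. 1 pair of names near the top could not be separated by its values: miR-151b was listed at 0.995 of miR-151a-5p in sh1 and 0.994 in sh2, with means of 75890 and 76316.

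Grouping the sequenced rows by seed gave 913 seeds over 1070 distinct mature sequences, of which 809 belonged to 1 sequence and 104 to at least 2. The 5 largest families held 57.1% ± 0.461 (SD, n = 2) and the 20 largest 82.2% ± 0.180 of all counts. 4 seeds were enough to reach 50% of the counts in sequenced rows, and 22 to reach 90%. A family's level came mostly from 1 member in some cases and from several in others.

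The family with seed AGCUUAU held 20.2% of all counts and was almost wholly miR-21-5p, since miR-590-5p had 102.8 normalised counts in sh1 and 79.4 in sh2. The ACCCGUA family held 17.6% ± 0.438 (SD, n = 2). In it miR-100-5p took 89.8% and miR-99b-5p 10.1%, while miR-99a-5p had a mean of 1066. The GCUACAU family of miR-221-3p and miR-222-3p held 6.83% ± 0.422, with 77.8% of it in miR-221-3p. miR-7-5p and miR-31-5p were the only sequenced rows with their seeds and held 6.29% and 3.26%.

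Among the 10 largest families, let-7 had the smallest share in its leading member. It held 6.24% ± 0.216 (SD, n = 2) of all counts in 9 sequenced rows, 7 of them above the floor. let-7f-5p took 42.3% of the family, let-7g-5p 22.6%, let-7i-5p 14.9% and let-7a-5p 14.6%. let-7b-5p, let-7e-5p and let-7d-5p had means of 13026, 10709 and 10251, and miR-4458 and miR-4500, which share the seed, were listed at 0 in both libraries. miR-98, which is counted to the let-7 family, had 17618 and 17209 but no match in the sequence table and is not in these sums. let-7 is held low by LIN28 proteins in embryonic cells.

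The remaining large families each had a leading member that also stood among the 20 most abundant miRNAs. In the UCAAGUA family (3.12%) miR-26a-5p took 72.2% and miR-26b-5p 27.8%. In the AGCACCA family (2.47%) miR-29a-3p took 98.5%, with means of 3062 for miR-29b-3p and 546 for miR-29c-3p. The CAGUGCA family (2.23%) was split between miR-148b-3p, at 52.9%, and miR-148a-3p, at 47.1%. In the AAUACUG family (2.17%), whose members repress ZEB1 and ZEB2 and so maintain the epithelial state, miR-200c-3p took 57.1%, miR-200b-3p 31.7% and miR-429 11.2%.

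**Figure D2:**
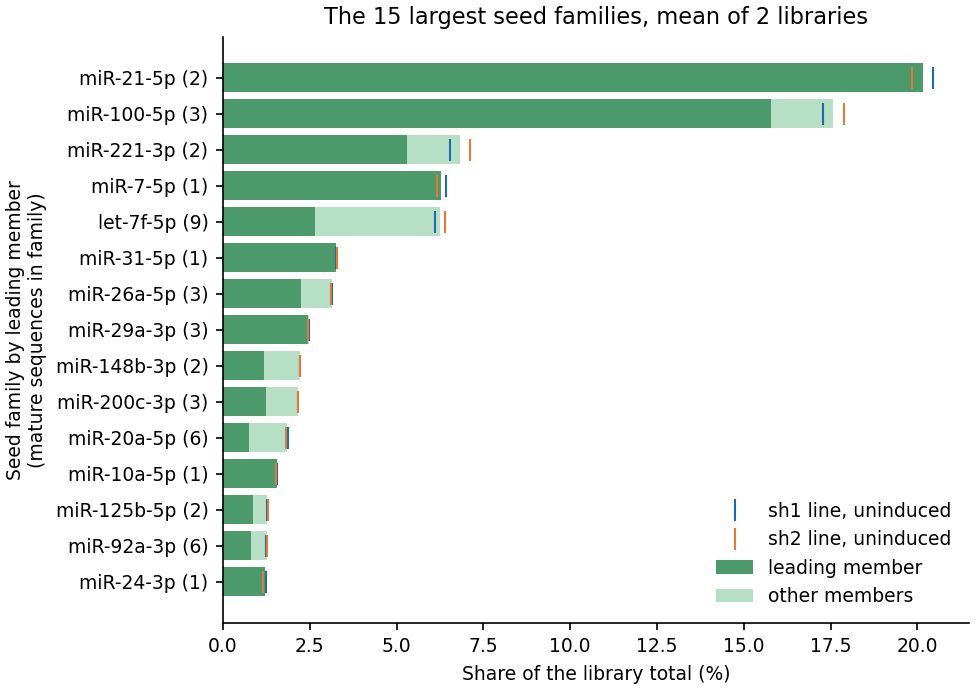
Share of all normalised counts (horizontal axis, percent) of the 15 largest seed families among names with a matched sequence. Bars show the mean of the 2 minus libraries split into the leading member and the others, with a tick for each library. Names without a match, such as miR-186-5p (1.48%), are in no family. The miR-21 and miR-100 families reach 20.2% and 17.6%, and in the let-7 family the leading member takes 42.3%.

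What the abundant sequences shared was looked for in their first base and length. U was the first base of 39.3% of the 1070 distinct sequences but of 62.6% of the counts in sequenced rows in sh1 and 61.4% in sh2. Among the 152 sequences with a mean of at least 1000, 53.3% began with U and 6.58% with G. Among the 531 with a mean under 10, 38.6% began with U and 11.9% with G. A began 29.4% of all sequences and took 31.9% of the counts in sh1 and 33.2% in sh2, but it began fewer of the abundant sequences (23.7%) than of those under 10 (30.9%). G came first in 11.2% of the sequences and in 0.437% and 0.436% of the counts. Sequences of 22 bases made up 53.4% of all sequences and 66.8% of the counts in each library, and those of 21 to 24 bases made up 89.5% of sequences and 99.9% of counts. miR-21-5p, which begins with U, and miR-100-5p, which begins with A, both have 22 bases. They held 20.2% and 15.8% of all counts. The shares of counts by first base and for 22 bases thus rest largely on these 2 sequences and were not remade without them.

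Both arms were rows of the table for 364 hairpins. Of the 182 with a summed mean of at least 100, the 5p arm was higher in 104 (57.1%) and the 3p arm in 78. The 5p arms held 74.4% of these hairpins' counts, with miR-21-5p and miR-100-5p among them. The higher arm exceeded the lower by a median of 21.2-fold. The ratio was under 2-fold in 26 hairpins, from 2-fold to 10-fold in 39, from 10-fold to 100-fold in 72 and at least 100-fold in 45.

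Arm ratios varied little between the lines. Over the 98 hairpins whose lower arm had a mean of at least 100, the difference in log2 arm ratio between the libraries had an SD of 0.17 and reached at most 0.63. The higher arm was the same in both libraries for all but 1 of the 182 hairpins. The exception was miR-574, with 792 normalised counts of the 5p strand in sh1 and 805 in sh2, against 755 and 808 of the 3p strand. Its 2 strands stood at nearly equal levels, with a ratio of 1.02 and an interval of 0.953 to 1.09. Intervals of arm ratios here are 95% exact binomial (Clopper-Pearson) intervals on estimated reads summed over both libraries, and they cover counting error only.

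The most one-sided hairpin was miR-100. Its 5p strand had a mean of 1543366 normalised counts and its 3p strand had 76.6 in sh1 and 79.5 in sh2, a ratio of 19777 (interval 16950 to 23253). miR-186 followed, with 5p over 3p by 9491-fold (interval 6720 to 14038). miR-101, whose 3p strand targets EZH2, was one-sided in the other direction. miR-101-3p had 30407 and 25326 normalised counts, while miR-101-5p had 2.02 in sh1 and 5.69 in sh2, so its ratio of 7229 had a wide interval of 3614 to 16498.

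The other hairpins among the 10 most one-sided were miR-96, let-7g, miR-192, miR-15a and miR-450b, all with the 5p arm higher, and miR-19a and miR-143 with the 3p arm higher. Their ratios ran from 721 in miR-143 to 3483 in miR-96. Several rest on very few reads of the lower arm: miR-192 had 3 such reads in both libraries together (ratio 2001, interval 673 to 9538), and miR-450b also had 3 (ratio 774, interval 263 to 3732). The order of these hairpins is therefore not resolved at this depth.

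A smaller group kept both strands at similar levels. miR-576 had 1124 and 1094 normalised counts of the 5p strand in sh1 and sh2 and 1241 and 1103 of the 3p strand, a ratio of 1.06 (interval 0.996 to 1.12). miR-151a-5p had a mean of 76316 and miR-151a-3p one of 61801, a ratio of 1.23. For miR-106b, of the cluster with miR-25, the 5p strand was 1.47 times the 3p strand. The 3p strand was the higher one in miR-1304 (1.61-fold), miR-126 (1.62-fold), miR-625 (1.79-fold) and miR-130b (1.81-fold), and the 5p strand in miR-374a (1.96-fold).

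miR-9 also kept both strands, and their mature sequences are shown, with the seeds in capitals, because both were abundant.
miR-9-5p: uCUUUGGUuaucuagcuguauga
miR-9-3p: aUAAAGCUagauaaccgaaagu
miR-9-5p had 14627 normalised counts in sh1 and 13849 in sh2, and miR-9-3p had 25083 and 23399. The 3p strand was 1.71 times the 5p strand in sh1 and 1.69 times in sh2, so the ratio was nearly the same in both lines.

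**Figure D3:**
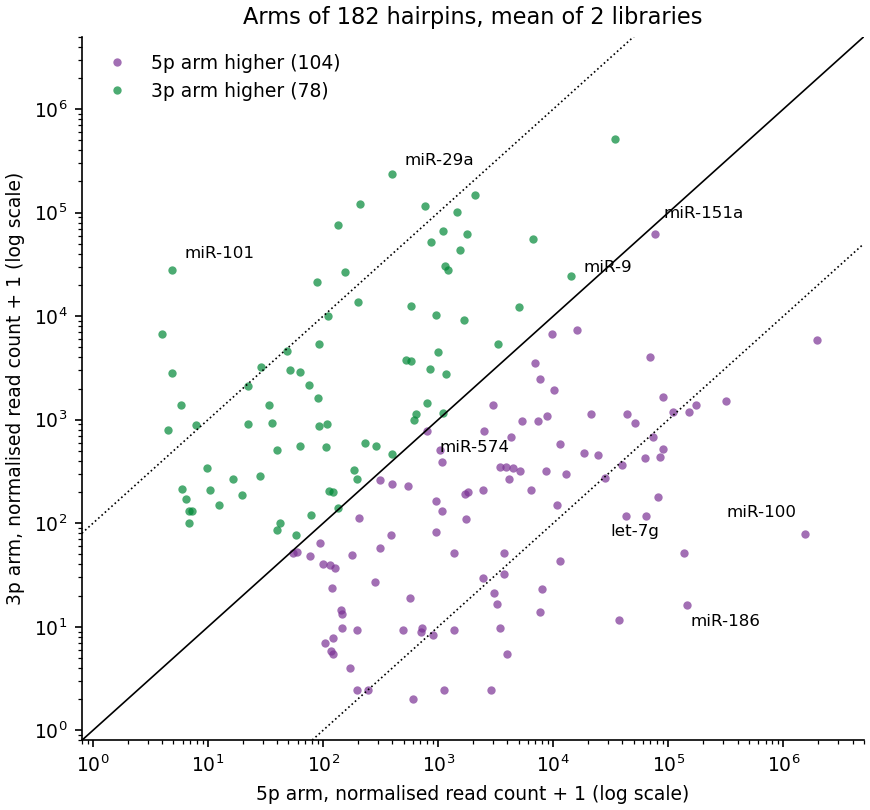
Level of the 5p strand (horizontal) against that of the 3p strand (vertical), both as normalised counts plus 1 on log axes, for 182 hairpins, mean of the 2 minus libraries, coloured by the higher arm. The solid line marks equal levels and the dotted lines 100-fold differences, with miR-100 and miR-101 far outside them and miR-574 and miR-151a near the solid line.

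Markers of epithelium were described next. Their list was chosen with earlier results of these data known, so it is no independent check of the labelled cell type. All 8 epithelial miRNAs, those of the miR-200 and miR-183 families, were high and together held 4.42% of the counts in each library. miR-200c-3p had 119446 normalised counts in sh1 and 122647 in sh2, miR-182-5p 62955 and 66383, and miR-183-5p 61096 and 64084. miR-96-5p, of the same cluster, had 38796 and 35737. The lowest of the 8 was miR-141-3p with 12994 and 11979. Thus every member of the list lay above 10000 in both libraries.

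Markers of the intestine were present at lower levels. miR-194-5p had 3628 normalised counts in sh1 and 3201 in sh2, and miR-192-5p had 3027 and 2736. miR-215, which shares a family with miR-192, had 69.6 and 82.1, so that miR-192-5p was 38.0 times as high. miR-135b-5p, raised in colorectal adenoma and carcinoma along with miR-21-5p and miR-31-5p, had 8102 and 6568.

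The tissue-restricted lists named 80 strands, of which 71 had a row and 9 were not analysed here. At or under the floor in both libraries were 27 of the 71 (38.0%, against 29.7% of all rows), 13 of them listed at 0. A strand listed at 0 may still make up to 3 reads, or 3.07e-05% of the total in sh1 and 2.92e-05% in sh2. At the other extreme 15 had a mean of at least 100 and 8 of at least 1000. The share at the floor was thus not far from that of the whole table, and the lists differed widely among themselves.

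miRNAs of pluripotent cells and of the placenta were at the floor almost throughout. Of 8 strands of the miR-302/367 and miR-371-373 clusters, 7 were at or under the floor, and the other, miR-302b-3p, had 4.05 normalised counts in sh1 and 4.61 in sh2. Listed at 0 in both were miR-302a-3p, miR-302c-3p, miR-372 and miR-373-3p, while miR-302d-3p and miR-367-3p had 1.01 in sh1 only and miR-371a-5p had 1.9 in sh2 only. Of 8 strands of the placental cluster on chromosome 19, 7 were at or under it, and miR-516b-5p had 0 and 3.84. The 7 were miR-512-3p, miR-525-5p and miR-1323, listed at 0 in both, and miR-515-5p, miR-517a-3p, miR-518b and miR-526b-5p, with at most 2.01.

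Of 8 strands of the testicular cluster on chromosome X, 4 were at or under the floor, namely miR-509-3p, miR-510, miR-888-5p and miR-891a. miR-506-3p had 2.02 normalised counts in sh1 and 5.71 in sh2, miR-513a-5p 3.02 and 6.71, and miR-508-3p 4.03 and 3.76. The highest of these, miR-514a-3p, had 1.02 and 9.51, or 1 and 10 estimated reads.

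Markers of muscle and liver were low with 1 exception. miR-133a and miR-208b were listed at 0 in both libraries, and miR-1, the main miRNA of striated muscle, had 7.06 normalised counts in sh1 and 8.48 in sh2. miR-122-5p, which dominates the miRNAs of hepatocytes, had 48.4 and 48.2. miR-499a-5p, encoded within the myosin gene MYH7B, had 274 and 219, far above the other muscle strands.

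Neuronal markers were split. miR-488-3p was listed at 0, miR-129-5p had 6.05 and 4.66 normalised counts, and miR-124-3p, a highly abundant miRNA of mature neurons, had 13.1 in each library. miR-219-5p had 41.3 and 50.1, and miR-153 had 255 and 188. By contrast both strands of miR-9, a miRNA of neural progenitors and neurons, lay above 10000, as given with their sequences.

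Markers of blood cells lay between. miR-486-5p, abundant in red cells, had 789 normalised counts in sh1 and 1014 in sh2, and miR-451a, the other red cell miRNA, had 103 and 115. The leukocyte miRNAs were lower, with 60.5 and 38.7 for miR-142-3p, 31.3 and 34.98 for miR-142-5p, 5.04 and 4.73 for miR-223-3p, and 4.04 and 4.67 for miR-150-5p. miR-144-3p, made with miR-451a from 1 transcript, had 2.01 and 0, and miR-144-5p had 8.06 and 9.51.

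Stromal and endothelial markers included several abundant strands. miR-145-5p had 7535 normalised counts in sh1 and 7944 in sh2 and miR-143-3p had 2892 and 2724, so that miR-145-5p was 2.76 times its smooth muscle partner. miR-126-3p, made from an intron of the endothelial gene EGFL7, had 5490 and 5305, and miR-126-5p 3426 and 3242. miR-214-3p, in contrast, stayed at the floor with 2.02 and 1.88. miR-199a-3p, with 506 and 519, was 13.1 times miR-199a-5p, and its values equal those of miR-199b-3p, so the 2 names cannot be told apart. miR-199b-5p had 1029 and 1059, above the shared 3p values. The ratio of 13.1 can therefore not be read as the arm ratio of the miR-199a hairpin.

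The imprinted cluster on chromosome 14 was low but detected. Of its 15 strands, 3 were at or under the floor and 2 had a mean of at least 100, miR-411-5p with 163 and 123 normalised counts and miR-379-5p with 110 and 123. At the floor were miR-154-5p, miR-370 and miR-493-3p. The other 10, miR-127-3p, miR-134, miR-323a-3p, miR-376c, miR-382-5p, miR-409-3p, miR-410, miR-485-5p, miR-495 and miR-654-3p, ran from 6.07 (miR-134, sh1) to 53.4 (miR-654-3p, sh1).

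miR-375, a miRNA of pancreatic islets and of enteroendocrine cells, had 3589 and 3948. miR-216a was listed at 0 in both and miR-217 had 2.02 and 3.83. Of the markers of stratified epithelium, miR-203 was high with 47236 and 40025, and miR-205-5p was low with 14.1 and 13.3, making miR-200c-3p 8842 times as high as miR-205-5p.

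**Figure D4:**
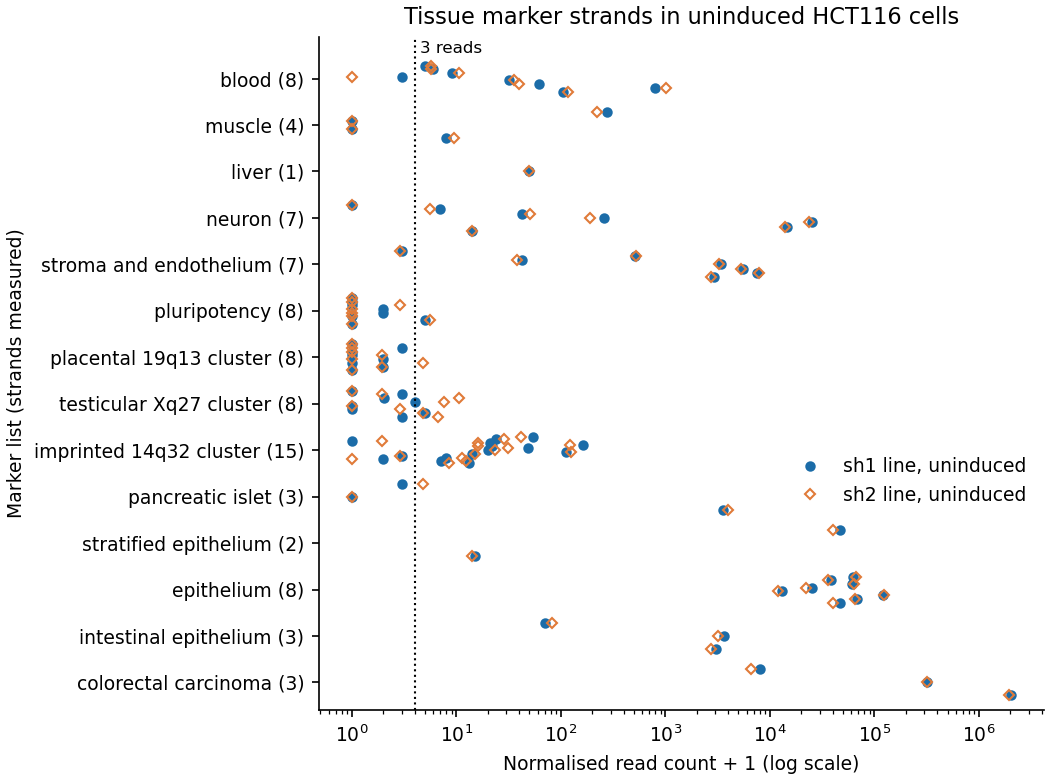
Normalised counts plus 1 (log axis) of each strand of the marker lists in the 2 minus libraries, grouped by list, with the floor of 3 reads marked. The epithelial list lies above 10000 throughout, and the pluripotency and placental lists lie near the floor.

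Strands encoded close together ranged from nearly equal to more than 10-fold apart. Hairpins on the same strand within 10000 bases of each other in RefSeq were grouped, using only mature strands that belong to 1 such group. The groups were not complete. The group of miR-182 and miR-96 lacked miR-183, that of miR-200b and miR-429 lacked miR-200a, and that of miR-25 and miR-106b lacked miR-93. Ratios to these missing members are not given. In the cluster of miR-221 and miR-222, miR-221-3p was 3.5 times miR-222-3p. In the cluster of miR-99b, let-7e and miR-125a, miR-99b-5p was 16.2 times let-7e-5p and 4.36 times miR-125a-5p. In the miR-17-92 cluster, which is activated by MYC, miR-20a-5p had 75986 normalised counts in sh1 and 72202 in sh2 and was 8.44 times miR-18a-5p and 10.98 times miR-19a-3p.

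Other pairs lay closer together. In the cluster of miR-23a, miR-27a and miR-24-2, miR-23a-3p was 1.23 times miR-27a-3p. In the cluster that also holds miR-532 and miR-660, miR-362-5p was 1.2 times miR-500a-3p, and within the miR-17-92 cluster miR-20a-5p was 1.68 times miR-17-5p. The former cluster was not even throughout, since its miR-188-5p had a mean of 120 against 4428 for miR-362-5p. Among epithelial miRNAs, miR-182-5p was 1.74 times miR-96-5p and miR-200b-3p 2.83 times miR-429, whereas miR-200c-3p was 9.69 times miR-141-3p, its neighbour, and miR-27b-3p was 5.30 times miR-23b-3p. miR-25-3p was 2.86 times miR-106b-5p. Small-RNA libraries join adaptors to some sequences more readily than to others, and the part of this in differences between miRNAs was not tested.

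The difference between the 2 uninduced lines was described by the ratio of sh1 to sh2. With 1 library per line it has no replicate check and no test was made. Among 383 miRNAs whose mean reached 100, 0 (0%) were at least 2-fold apart and 3 (0.783%) were at least 1.5-fold apart, and 317 (82.8%) lay within 1.2-fold. Of 316 with means from 10 to under 100, 16 (5.06%) were at least 2-fold apart. The sh1 value was the higher one in 230 of the 383 (60.1%), with a median log2 ratio of 0.04. This count depends on the scale, and with the median ratio set to 1 it was 191 (49.9%) by construction.

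The spread of the ratios narrowed with level. The SD of the log2 ratio was 0.48 for means of 10 to 100, 0.21 for 100 to 1000, 0.15 for 1000 to 10000 and 0.096 from 10000 up. The median counting error of a log2 ratio was 0.38, 0.12, 0.039 and 0.0087 in those bands. For low miRNAs the spread was thus near the counting error, and for the abundant ones well above it. Accordingly the 95% exact binomial interval of the ratio excluded 1 in 23 of 316 rows in the lowest band and in 60 of 74 in the highest. Such an interval covers counting error in these libraries and not the variation between cultures.

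The 3 miRNAs at least 1.5-fold apart were miR-1252, miR-32-5p and miR-328. miR-1252 had 171 normalised counts in sh1 and 95.3 in sh2, 1.80-fold higher in sh1 (interval 1.40 to 2.32). miR-32-5p, of the miR-92a seed family, had 2187 and 1420, 1.54-fold higher (interval 1.44 to 1.65). miR-328 had 82.7 and 125, lower in sh1 with a ratio of 0.663 (interval 0.497 to 0.879). Only miR-32-5p of the 3 had a mean above 1000.

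The next highest ratios in sh1 were those of miR-548n (1.43), miR-556-3p (1.41), miR-190a (1.40), miR-33a-5p (1.40) and miR-570-3p (1.39). miR-33a-5p, encoded in the cholesterol regulator gene SREBF2, had 448 and 321 normalised counts. miR-548o-5p, miR-548c-5p and miR-548am-5p had the same values, 140 and 102, and cannot be told apart. On the other side stood miR-210, the best known miRNA induced by hypoxia, with 1522 in sh1 and 2081 in sh2 (ratio 0.731, interval 0.684 to 0.781). miR-106a-5p (0.766), miR-486-5p (0.779), miR-3928 (0.798), miR-25-5p (0.799), miR-744-3p (0.806) and miR-130b-5p (0.823) were also lower in sh1. For miR-181c-3p (0.795) and miR-616-5p (0.805) the interval included 1.

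Among the 50 most abundant miRNAs the ratio ran only from 0.902 to 1.2. miR-101-3p was highest in sh1 relative to sh2 at 1.2, followed by miR-27b-3p (1.19), miR-203 (1.18), miR-200a-3p (1.16) and miR-30e-5p (1.12). The lowest ratios were those of miR-222-3p (0.902), miR-221-5p (0.906), miR-151a-5p (0.932), miR-151b (0.932) and miR-221-3p (0.938). The 3 strands of miR-221 and miR-222 here were named for their low ratios, so their shared direction is no separate result. miR-222-5p, which is not among the 50, was nearly level with a log2 ratio of -0.023.

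The base composition of the mature sequence moved with the ratio. Over 297 miRNAs with a sequence and a mean of at least 100, counting names with the same mature sequence once, the log2 ratio of sh1 to sh2 had a Spearman correlation of -0.37 (Pearson -0.36) with the percentage of G and C. It was -0.46 over the 152 with a mean of at least 1000 and -0.016 over the 242 with a mean of 10 to 100. With the length of the sequence it was 0.0061 and with the mean level 0.0056. These are descriptions across miRNAs that share the same 2 libraries.

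By GC content, all 9 miRNAs at or below 30% were higher in sh1, with a median log2 ratio of 0.41. From 30% to 40%, 45 of 55 were higher in sh1 (median 0.084), and from 40% to 50%, 84 of 130 (median 0.053). From 50% to 60%, 20 of 55 were (median -0.024), and above 60%, 22 of 48 (median -0.0044). The sign of the smaller medians depends on where 0 is set. With the median ratio of all 383 set to 1, the medians of the 5 bands in the same order were 0.36, 0.043, 0.012, -0.065 and -0.046, and 12 of 55 and 15 of 48 were higher in sh1 in the last 2. The order of the bands does not depend on the scale, and the lowest band lay farthest from the others. The miR-548 family is a large primate family derived from a transposable element. Of its 24 rows with a mean of at least 100, 21 were higher in sh1 on the deposited scale, against 230 of all 383 (60.1%). The median log2 ratio of the 24 rows was 0.13, against 0.04 for all 383, and they held 19 distinct pairs of values. Their count was not remade with the median ratio set to 1. The part of base composition in the differences between the lines was not tested, and line, culture and library cannot be told apart.

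The sequences of all 11 miRNAs that have one among the 10 highest and the 10 lowest ratios are shown to let their composition be read against this trend, with G and C in capitals. The first 5 were higher in sh1 and the last 6 lower. All 11 are among the 297, so they illustrate the trend and are no separate check of it.
miR-32-5p: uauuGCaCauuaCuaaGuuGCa
miR-548n: CaaaaGuaauuGuGGauuuuGu
miR-556-3p: auauuaCCauuaGCuCauCuuu
miR-33a-5p: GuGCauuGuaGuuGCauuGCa
miR-570-3p: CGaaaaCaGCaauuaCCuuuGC
miR-106a-5p: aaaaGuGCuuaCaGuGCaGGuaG
miR-181c-3p: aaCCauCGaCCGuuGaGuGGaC
miR-25-5p: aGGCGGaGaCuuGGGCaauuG
miR-616-5p: aCuCaaaaCCCuuCaGuGaCuu
miR-744-3p: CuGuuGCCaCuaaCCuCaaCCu
miR-130b-5p: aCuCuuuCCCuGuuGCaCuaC
The median GC content was 31.8% in the first 5 and 48.8% in the last 6, against 47.6% over the 297. The 2 sets overlapped, since miR-33a-5p (42.9%) and miR-570-3p (40.9%) among the first lay in the range of miR-616-5p (40.9%) and miR-106a-5p (43.5%) among the last. The ends of the sets were miR-548n and miR-556-3p at 27.3% and miR-25-5p at 57.1%.

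Abundant AU-rich miRNAs also differed among themselves. miR-590-3p, the lowest in GC (19.05%) and named after its values were seen, had 6219 normalised counts in sh1 and 4601 in sh2, a ratio of 1.35 (interval 1.30 to 1.40). miR-335-5p, at 30.4% GC, had 16684 and 15824, a ratio of 1.05.

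**Figure D5:**
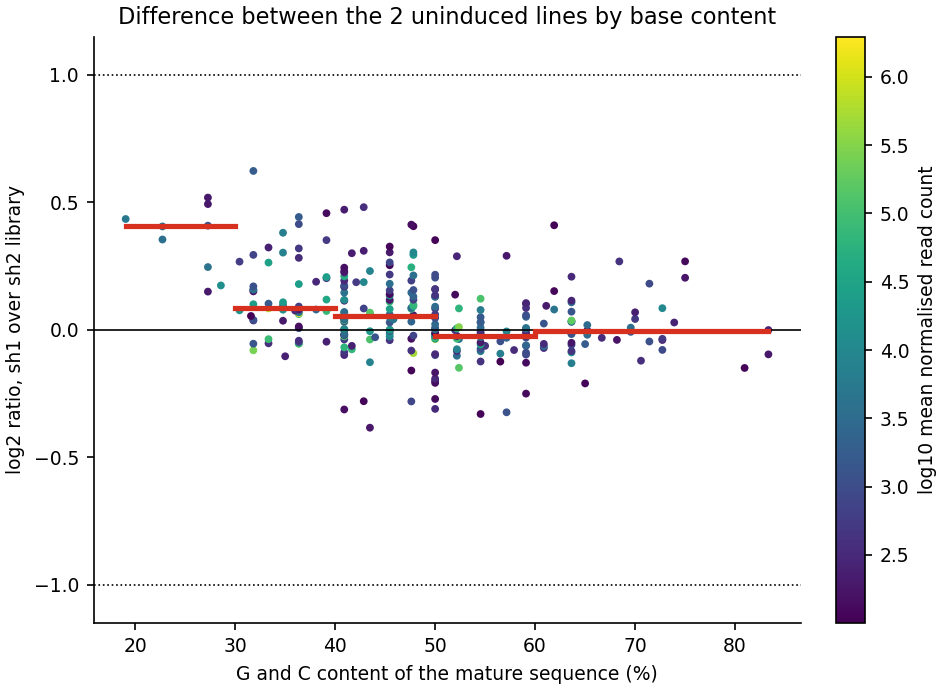
Log2 ratio of the sh1 to the sh2 minus library (vertical axis) against the GC content of the mature sequence (horizontal axis, percent) for 297 miRNAs with a mean of at least 100 normalised counts, 1 point each, coloured by level, with bars for the median of each GC band and dotted lines at 2-fold. The 9 points at or below 30% GC all lie above 0, and the medians above 50% lie slightly below it on the deposited scale.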

How the data were processed

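Small-RNA libraries of HCT116 were made with an Illumina kit modified by random bases in the 5′ adaptor, per the labels' protocols. For each mature miRNA the table holds a signal, as the authors deposited it, and it was read as a normalised read count because low values lie near whole multiples of a step. Within 0.1 of a whole read lay 100% of the 682 values up to 60 in the sh1 library and 86.9% of 710 in sh2, so no count model of differences was fitted. The binomial intervals and the chi-square do treat the estimated reads as counts, and for sh2 those reads are approximate. Adaptors were removed by cutadapt, as the sample titles state (per the labels). Per the submitters' processing notes, which assign no roles, the tools were TopHat2 2.0.8b and edgeR and the builds GRCh37 and hg19. How reads were counted, annotated and scaled is not given in the sources used here.

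Only the 2 minus libraries were used, and n = 2 means 1 library from each shRNA line. Levels are means with SDs, and no difference was tested. A chi-square of estimated reads served only to check that the pair was not 1 library deposited in duplicate. Intervals are 95% exact binomial (Clopper-Pearson) intervals on reads estimated from the step. Families share bases 2 to 8 of the RefSeq mature sequence, with names of 1 sequence counted once. Coordinates are not printed because the builds differ. Named miRNAs were the 20 most abundant, the 10 largest families' leading members, every member of the marker lists, and, by the most extreme and least extreme values, hairpins with a summed mean of at least 1000 and line ratios among rows with a mean of at least 100 and among the 50 most abundant. Others serve as family, cluster or composition examples. The members and lists were chosen with earlier results of these data known. In the table, 328 rows above 0 have the values of another row, 16 of them with a mean of at least 10. Alternatives covered rows with shared sequences, the floor, the filters on level, the scaling, a pseudocount of 1 and each library alone. The calculations were tested on simulated data with Python 3.11.15, pandas 2.3.3, NumPy 2.4.6 and SciPy 1.17.1.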

Additional observations from a re-analysis of the deposited data

How the results depend on the processing

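Of 37 alternatives to the summary values, 29 left the value within its spread between the libraries, or within 1.5 times for a count, and 8 moved it. The share of the 10 most abundant miRNAs was 61.9% with miR-151b left out of the total, an alternative chosen after seeing the data. The share of hairpins with a higher 5p arm was 52.7% with a summed level of at least 10, 60.2% with at least 1000, and 60% (93 of 155) where the arms were at least 2-fold apart in both libraries. With each library left out it ran from 56.6% to 57.1%. At a floor of 0.5 normalised counts, 13 tissue-restricted strands were at or under the floor. At a floor of 10 it was 39, against 27 in the main setting, which stayed within 1.5 times. The 833 miRNAs detected in both libraries became 1051 above 0.5 normalised counts and 670 at 10 or more, also within 1.5 times. Between the lines, 16 miRNAs were at least 2-fold apart with a mean of at least 10, and 3 were at least 1.5-fold apart with a mean of at least 100. Of 150 alternatives for named miRNAs, 131 left the value within its spread, which for a line ratio was taken from its counting interval. A share that is the mean of the 2 libraries moves by less than their SD when 1 is left out, whatever the values. Such alternatives, here and among the 37, could not count as moved and are no check of the shares. Equal totals move every log2 line ratio by -0.02 and a median ratio of 1 by -0.04. No paired analysis was possible because the plus libraries were not used and no difference was tested. With 1 library per line, differences between the lines have no replicate check. Below about 10 normalised counts a value rests on about as many reads, so levels and arm ratios there are known to counting error only.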
